A study of Mus musculus with 12 samples.

Results

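Erythroid genes were examined in microdissected mouse otic vesicles as a readout of blood carried with the tissue. The otic vesicle is the epithelial sac from which the inner ear forms. The genes were Hba-x, Hbb-bh1, Hbb-y, Alas2, Klf1, Gata1, Epor, Slc4a1, Hemgn and Car2, and every probe set annotated to 1 of these genes alone was taken, which gave 16 probe sets of 10 genes among 45101 probe sets and 18194 genes in all. None of the 16 was shared with another gene in the annotation, and no filter on low values was applied, so all 16 were tested.

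RNA was measured on 12 Affymetrix mouse arrays in 6 groups of 2, and each value is a log2 expression level. The vesicle groups were E10.5 embryos labelled Dlx5-null, E10.5 wild type, E10 embryos labelled Dlx5-null and E10 wild type, where E marks the embryonic day. Each vesicle replicate was a separate pool of 4 to 8 vesicles treated with 1 mg/ml dispase to take off adhering mesenchyme. The cell line groups were independent cultures of 2B1, an otic vesicle line, transiently transfected with a GFP vector carrying Dlx5 or with the empty GFP vector, then held at 37 °C without gamma-interferon for 4 days. The labels describe the null embryos by genotype alone, with no further account of the allele.

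Primitive erythroid cells arise in the yolk sac, enter the circulation at around these stages while still nucleated, and make embryonic haemoglobin from zeta globin (Hba-x) with the epsilon-y and beta-H1 globins (Hbb-y and Hbb-bh1). The transcription factors GATA1 and KLF1 bind GATA and CACCC box motifs at globin, haem synthesis and membrane protein genes, and erythropoietin signals through its receptor Epor. An otic vesicle holds no red cell lineage of its own, so transcripts of these genes in dissected tissue are commonly read as blood in vessels or on the surface.

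Upstream sequences are shown for 5 members because motifs of both factors recur in front of genes of this set. RefSeq promoters (assembly GRCm38.p6) were available for 7 of the 10 members, and motifs were searched on both strands in the 250 bases before the gene start, as AGATAA for GATA, where T was also allowed as the first base and G as the last, and as CCNCNCCC for the CACCC box. The runs below are the 120 bases before the start, 5′ to 3′ on the gene's strand, with matches in capitals. For 6 of the 7 genes this start is the 5′ end of the annotated gene. For Gata1 it lies 8753 bases inside the gene span, and the upstream end of that span was not searched.
Hba-x (chr11:32276480-32276599, plus strand): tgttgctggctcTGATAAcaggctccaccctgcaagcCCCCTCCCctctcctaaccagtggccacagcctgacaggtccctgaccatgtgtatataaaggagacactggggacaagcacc
Alas2 (chrX:150547297-150547416, plus strand): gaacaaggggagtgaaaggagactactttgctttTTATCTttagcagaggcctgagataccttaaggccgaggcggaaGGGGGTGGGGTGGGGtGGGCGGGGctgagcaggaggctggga
Klf1 (chr8:84901862-84901981, plus strand): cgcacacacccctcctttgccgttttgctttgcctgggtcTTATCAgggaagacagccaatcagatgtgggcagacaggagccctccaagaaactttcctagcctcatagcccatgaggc
Gata1 (chrX:7967911-7968030, minus strand): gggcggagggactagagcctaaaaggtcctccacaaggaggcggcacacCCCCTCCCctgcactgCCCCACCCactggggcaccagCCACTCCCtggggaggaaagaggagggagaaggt
Hemgn (chr4:46404184-46404303, minus strand): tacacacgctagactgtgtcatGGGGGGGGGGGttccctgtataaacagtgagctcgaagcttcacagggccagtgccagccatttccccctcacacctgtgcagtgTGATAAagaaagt

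A GATA match lay within 250 bases of the start in 6 of the 7 promoters, against 26.5% of the 32851 promoters of the table. A match to CCNCNCCC lay there in 5 of the 7, against 45.9%, and both motifs lay there in 4 of the 7, against 8.2%. Gata1 had no GATA match in the window before this internal start. Hbb-y and Klf1 had no match to CCNCNCCC, although the letters CACCC alone occur before both starts. The GATA match nearest to the start was 13 bases before it in Hemgn, 54 in Epor, 80 in Klf1, 86 in Alas2, 108 in Hba-x and 162 in Hbb-y. Matches of neighbouring CACCC boxes overlap in Alas2 and in the G run of Hemgn, and a match is a description of the letters, not of binding.

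In RefSeq's GRCm38.p6 the epsilon-y and beta-H1 globin genes are neighbours on chromosome 7, Hbb-bh1 at chr7:103841638-103843162 and Hbb-y at chr7:103851754-103853207, with 8591 bases between them. Hba-x lies at chr11:32276600-32278116 and Slc4a1 on the same chromosome at chr11:102348820-102365281. Alas2 (chrX:150547417-150570622) and Gata1 (chrX:7959260-7976663) are X-linked. The others are Klf1 (chr8:84901982-84905291), Epor (chr9:21958897-21963576), Hemgn (chr4:46393989-46404183) and Car2 (chr3:14886269-14900770).

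Before the results, 3 features of the arrays bear on every value. The probe set for Dlx5, the targeted gene, was higher in the arrays labelled null, at 7.97 and 7.97 against 6.12 and 6.11 in wild type at E10.5 and at 7.27 and 8.02 against 6.20 and 6.30 in wild type at E10. Where its probes lie relative to the deleted part was not examined, so it checks no label, and directions below are those of the arrays as labelled. Both E10 replicate 1 arrays stood apart from the other 6 vesicle arrays: their values had an SD of 2.33 and 2.32, against 2.38 to 2.47 in the others, and the female-expressed Xist was at 4.98 and 5.07 there, against 8.91 to 9.72 in the others. The 8 vesicle arrays (means 6.10 to 6.11) and the 4 cell line arrays (means 5.76 to 5.82) appear to have been normalized separately, and no level was compared between them. With 2 arrays per group the number of arrays limits the precision, and red cells in smaller number cannot be told apart from less RNA per cell in bulk tissue.

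At E10.5 all 10 erythroid genes read higher in labelled Dlx5-null vesicles than in wild-type vesicles, by 1.21-fold to 3.53-fold over their 16 probe sets, and none of the 16 passed limma's test after adjustment over all sets. The largest difference was that of Hemgn, a nuclear protein of haematopoietic cells, at 3.53-fold. Embryonic globin Hba-x was 3.01-fold higher, the anion exchanger Slc4a1 2.57-fold and 2.99-fold by its brighter sets, and the haem synthesis enzyme Alas2 2.07-fold. At E10 the same genes showed no common direction, with 9 of 16 sets higher in labelled-null vesicles.

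Zeta globin, Hba-x, had log2 levels of 12.59 and 12.69 in labelled-null vesicles at E10.5, against 11.06 and 11.04 in wild type. At E10 it read 7.80 and 9.29 in labelled-null vesicles, against 7.61 and 9.30 in wild type. The E10.5 genotypes did not overlap, whereas at E10 the arrays split by replicate number and not by genotype. The E10.5 difference was 1.59 (SE 0.58, unadjusted p = 0.0257, limma adjusted p = 0.999).

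The beta-H1 globin gene Hbb-bh1 was read by 3 probe sets, which gave the same order of groups. The set 1437810_a_at had 13.67 and 13.69 in labelled-null vesicles at E10.5, against 12.85 and 12.82 in wild type, and at E10 10.11 and 11.42 against 10.16 and 11.82. At E10.5 both labelled-null arrays lay above both wild-type arrays, and at E10 the groups overlapped. The 3 sets differed by 0.85, 0.88 and 0.99 at E10.5, with SEs of 0.55, 0.46 and 0.42 (limma adjusted p = 0.999 for each).

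The epsilon-y globin gene Hbb-y had some of the highest values on the vesicle arrays, whose maximum was 14.9. By its set 1450621_a_at it read 13.86 and 13.95 in labelled-null vesicles at E10.5, against 13.16 and 13.22 in wild type, and at E10 11.26 and 12.35 against 10.86 and 12.48. The E10.5 difference was 0.72 by this set, and 0.43 and 0.40 by 1436717_x_at and 1436823_x_at, the smallest among the members' globin sets (limma adjusted p = 0.999 for each). An x in a set's name marks probes that can also match other transcripts, so reads of these neighbouring globin genes may not be separate, and how near Hbb-y came to the top of the scanner's range is unknown.

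Alas2, the erythroid form of the enzyme that starts haem synthesis, had 8.51 and 8.21 in labelled-null vesicles at E10.5, against 7.38 and 7.24 in wild type. At E10 it read 5.79 and 6.66 against 6.08 and 5.99 in wild type. Its E10.5 groups did not overlap, and its E10 groups did. The E10.5 difference was 1.05 (SE 0.27, unadjusted p = 0.00498, limma adjusted p = 0.999).

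At E10.5 the transcription factor genes differed in the same direction. Klf1, which drives the adult beta globin and red cell membrane programme, had 7.34 and 7.02 in labelled-null vesicles at E10.5, against 6.21 and 6.23 in wild type. At E10 it was lower in labelled-null vesicles, at 6.04 and 5.64 against 6.17 and 6.23 in wild type, and the groups did not overlap at either stage. The Klf1 difference was 0.96 at E10.5 (SE 0.19, unadjusted p = 0.00106, limma adjusted p = 0.685) and -0.36 at E10 (SE 0.19, unadjusted p = 0.0977, limma adjusted p = 1).

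Gata1, the factor required for red cell maturation, read 7.15 and 6.94 in labelled-null vesicles at E10.5, against 6.39 and 6.0 in wild type, and at E10 6.22 and 6.18 against 6.39 and 5.91. Its labelled-null arrays at E10.5 were the 2 highest of the 8, and the other 6 overlapped. The E10.5 difference was 0.85 (SE 0.22, unadjusted p = 0.00442, limma adjusted p = 0.999). Epor, the erythropoietin receptor gene, had 7.68 and 7.56 in labelled-null vesicles at E10.5, against 7.0 and 7.17 in wild type, a difference of 0.54 (SE 0.17, unadjusted p = 0.0133, limma adjusted p = 0.999). At E10 Epor lay at 6.89 and 6.88 in labelled-null vesicles and at 6.97 and 6.67 in wild type, which overlapped.

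Slc4a1, which encodes the band 3 anion exchanger of the red cell membrane, was read by 3 sets, which differed in range. By 1416464_at it had 9.76 and 9.71 in labelled-null vesicles at E10.5, against 8.34 and 8.41 in wild type, and at E10 7.06 and 7.71 against 6.68 and 7.48. By 1434502_x_at it had 10.55 and 10.80 in labelled-null vesicles at E10.5, against 9.09 and 9.10 in wild type, and at E10 6.71 and 8.09 against 6.14 and 8.08. The third set, 1431743_a_at, stayed between 4.43 and 4.73 in all 8 vesicle arrays, and this range of 0.30 was the narrowest of the 16 sets. The E10.5 differences were 1.36 (SE 0.30, unadjusted p = 0.00174, limma adjusted p = 0.837), 1.58 (SE 0.62, unadjusted p = 0.0332, limma adjusted p = 0.999) and 0.27 (SE 0.16, unadjusted p = 0.123, limma adjusted p = 0.999).

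Hemgn had 8.33 and 7.85 in labelled-null vesicles at E10.5, against 6.25 and 6.29 in wild type. At E10 it read 4.38 and 5.27 in labelled-null vesicles, against 5.22 and 5.29 in wild type. The 4 E10.5 arrays all exceeded the 4 E10 arrays, and at E10.5 both labelled-null arrays exceeded both wild-type arrays. The E10.5 difference was 1.82 (SE 0.29, unadjusted p = 0.000244, limma adjusted p = 0.4), the lowest p among the members in that contrast.

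Car2, a carbonic anhydrase gene active in red cells and also in many epithelia, had its groups in another order. It had 10.80 and 10.71 in labelled-null vesicles at E10.5, against 10.37 and 10.37 in wild type, and at E10 10.73 and 10.77 against 11.49 and 11.57 in wild type. Wild-type vesicles at E10 were thus the highest of the 4 groups and wild-type vesicles at E10.5 the lowest, with both labelled-null groups between them. The difference was 0.39 at E10.5 (SE 0.15, unadjusted p = 0.0296, limma adjusted p = 0.999) and -0.78 at E10 (SE 0.15, unadjusted p = 0.000684, limma adjusted p = 0.7). Car2 was the 1 member that correlated negatively with the mean of the other members over the 8 arrays (r = -0.46), where the other 15 sets had r of 0.48 to 0.98, a description over arrays that share tissue and normalization.

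**Figure D1:**
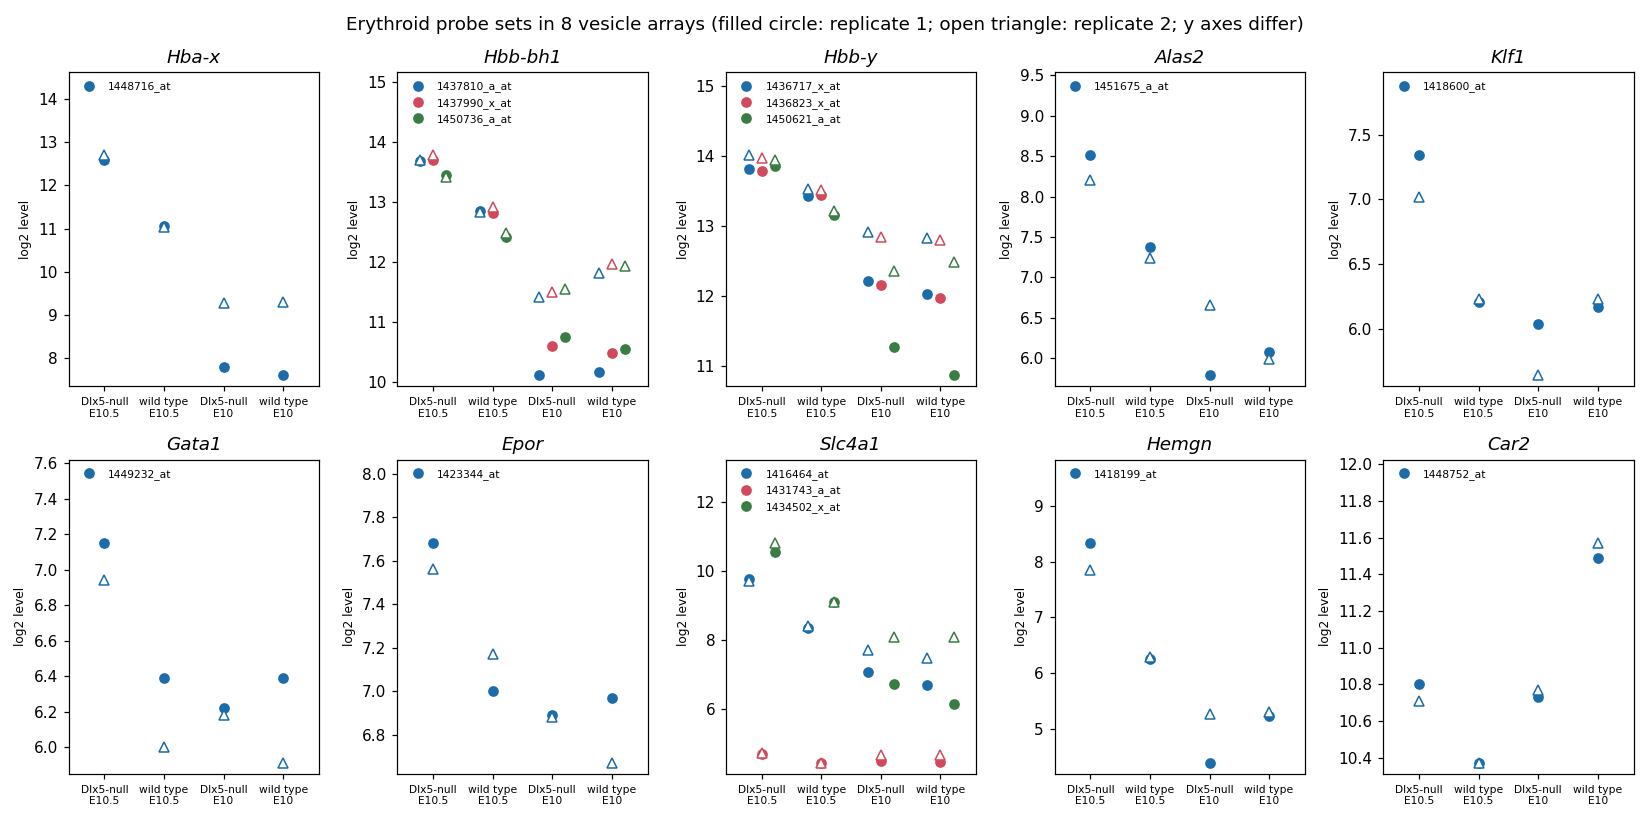
Log2 level of each erythroid probe set in the 8 vesicle arrays, 1 panel per gene, with the labelled Dlx5-null group to the left of wild type at E10.5 and then at E10; colours mark probe sets, filled circles replicate 1 and open triangles replicate 2, and y axes differ between panels. The globin genes Hba-x, Hbb-bh1 and Hbb-y spread widely between the 2 arrays of each E10 group, lie close together at E10.5 and read highest in labelled-null E10.5 vesicles, while Car2 reads highest in wild-type E10 vesicles.

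Counted together at E10.5, 16 of 16 sets were higher in labelled-null vesicles, against 52.3% of all 45037 tested sets. The labelled-null arrays were higher without overlap in 16 of 16, against 21.3% of all sets. At an unadjusted limma p under 0.05, 10 of the 16 were higher, against 0.764% of all sets, and 0 of 16 passed the adjusted threshold of 0.05, against 0.00222% of all sets (1 set). The members' median log2 difference was 0.86, against 0.01 over all sets. The count called reached 2 with the replicate number as a block, namely Hba-x (limma adjusted p = 0.0295) and Slc4a1 by 1416464_at (0.0441), and 4 without both E10 replicate 1 arrays, namely Hba-x (0.0116), 2 Slc4a1 sets (0.0195 each) and Hemgn (0.0303). In that last fit the lone E10 array of each genotype is assumed to vary like the E10.5 arrays. Over all sets the count called ranged from 0 to 52 over the alternative fits. The E10 arrays enter this contrast only through the shared estimate of spread, and the members' residual SD had a median of 0.37 over the 8 arrays, against 0.21 over all sets.

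At E10, 9 of 16 sets were higher in labelled-null vesicles, against 49.4% of all sets, with a median difference of 0.058 against 0 over all sets. In 0 of 16 were the labelled-null arrays higher without overlap, against 9.24% of all sets, and in 2 of 16, Car2 and Klf1, they were lower without overlap, against 9.52%. By limma 0 of 16 passed, against 0% of all sets, and 1 of 16, Car2, was lower at an unadjusted p under 0.05, against 1.55%. The median rested on single arrays: it was -0.43 without wild-type replicate 1 and 0.53 without wild-type replicate 2.

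Averaged over both stages with stage as a covariate, 15 of 16 sets were higher in labelled-null vesicles, against 52.6% of all sets, with a median of 0.39 against 0.01 over all sets, and Car2 was the exception at -0.20. Leaving out single arrays moved this median to between 0.28 (without the first wild-type E10.5 array) and 0.72 (without the second wild-type E10 array). It was 0.66 without the first labelled-null E10 array. By limma 0 of 16 passed, against 0.00444% of all sets. At an unadjusted p under 0.05, 3 of 16 were higher, against 1.26% of all sets: Slc4a1 by 1416464_at (0.83), Alas2 (0.62) and Gata1 (0.45), each with a limma adjusted p of 0.999.

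Whether the labelled-null difference depended on stage was tested directly, as the E10.5 difference minus the E10 difference. It was above 0 for 16 of 16 sets, against 51.8% of all sets, with a median of 1.05 against 0.015 over all sets, and by limma 0 of 16 passed, against 0% of all sets. At an unadjusted p under 0.05 were 5 of 16, against 0.766% of all sets that were higher: Hemgn (2.25, SE 0.41), Klf1 (1.32, SE 0.27), Car2 (1.17, SE 0.21), Slc4a1 by 1416464_at (1.06, SE 0.42) and Gata1 (0.80, SE 0.31), each with a limma adjusted p of 1. Without wild-type E10 replicate 2 the median was 0.50, and without labelled-null E10 replicate 1 it was 0.60. This contrast uses all 8 arrays and so shares them with each contrast above.

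**Figure D2:**
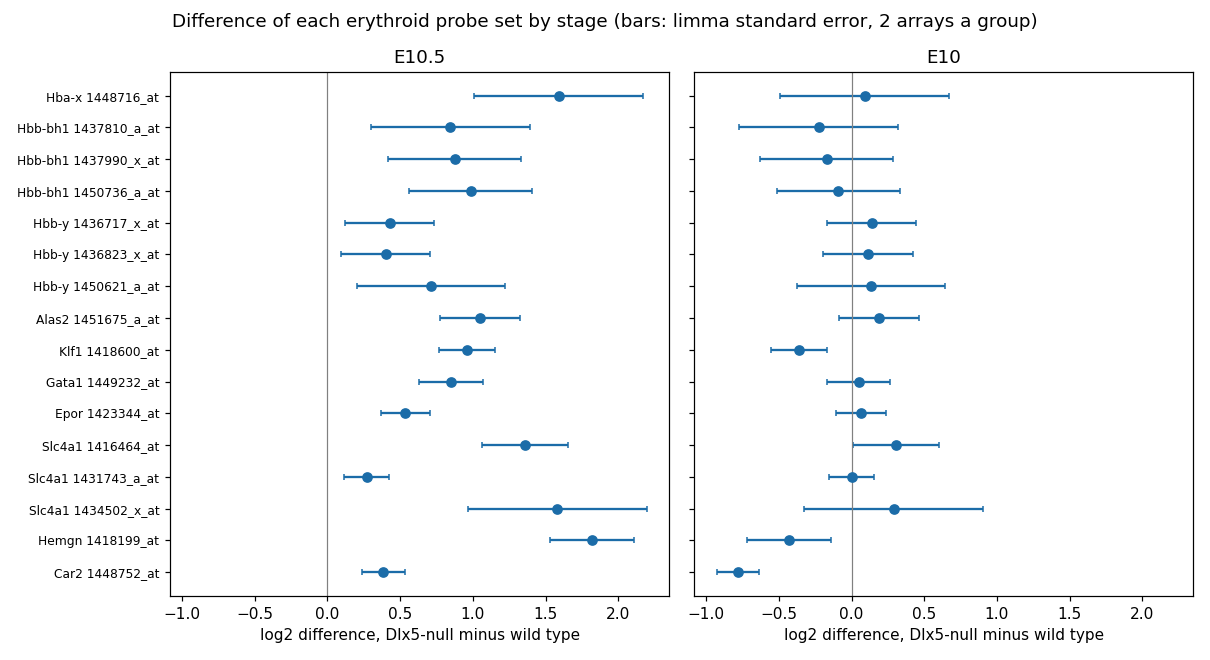
Log2 difference of each erythroid probe set, labelled Dlx5-null minus wild type, at E10.5 on the left and E10 on the right, with limma standard errors as bars and 2 arrays in each group. At E10.5 all 16 points lie to the right of 0, from 0.27 for Slc4a1 1431743_a_at to 1.82 for Hemgn, and at E10 they lie on both sides of 0 with Car2 lowest at -0.78.

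Between E10 and E10.5 the difference was above 0 in 16 of 16 sets in labelled-null vesicles, against 46.6% of all sets. In wild type it was above 0 in 14 of 16, against 42.2%, and 12 were higher without overlap, against 22.1%. Hba-x had the largest, at 17.1-fold in labelled-null and 6.04-fold in wild-type vesicles, with neither called. Single E10 arrays moved these folds: it was 10.2-fold without labelled-null E10 replicate 1, 28.6-fold without labelled-null E10 replicate 2, 3.36-fold without wild-type E10 replicate 1 and 10.85-fold without wild-type E10 replicate 2. Hemgn rose in labelled-null vesicles by 3.27 on the log2 scale (SE 0.29, limma adjusted p = 0.0168), a 9.61-fold difference. Car2 fell in wild-type vesicles by 1.16 on the log2 scale (SE 0.15, limma adjusted p = 0.0281). No other member passed in either stage contrast. Over all sets 0.0333% were called higher in labelled null and 0.457% were called lower in wild type.

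In labelled-null vesicles 16 of 16 sets were higher at E10.5, against 46.6% of all sets, with a median of 2.12 against -0.02 over all sets. Without overlap 15 of 16 were higher, against 18.2% of all sets, and at an unadjusted p under 0.05 14 of 16 were, against 4.51%. By limma 1 of 16 rose, Hemgn, against 0.0333% of all sets that rose. Several sets lay just beyond the threshold: Slc4a1 by 1416464_at differed by 2.35 (SE 0.30, limma adjusted p = 0.0552), Alas2 by 2.14 (SE 0.27, limma adjusted p = 0.0606), Hba-x by 4.10 (SE 0.58, limma adjusted p = 0.0674) and Klf1 by 1.34 (SE 0.19, limma adjusted p = 0.0674). The globin sets of Hbb-bh1 differed by 2.28 to 2.92 and those of Hbb-y by 1.35 to 2.10. Car2 differed by 0.005 (SE 0.15), the 1 set whose stages overlapped.

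In wild-type vesicles 14 of 16 sets were higher at E10.5, against 42.2% of all sets, with a median of 1.15 against -0.055 over all sets. Without overlap 12 of 16 were higher, against 22.1% of all sets, and 2 of 16, Car2 and Slc4a1 1431743_a_at, were lower, against 24.6%. At an unadjusted p under 0.05 11 of 16 were higher, against 8.49%. By limma 1 of 16 fell, Car2, against 0.457% of all sets that fell, and 0 of 16 rose, against 0.377%. Hba-x differed by 2.60 (SE 0.58, limma adjusted p = 0.0925), Alas2 by 1.28 (SE 0.27, limma adjusted p = 0.081) and Slc4a1 by 1416464_at by 1.30 (SE 0.30, limma adjusted p = 0.0957). The transcription factors and the receptor had small differences in this genotype: Klf1 0.02 (SE 0.19), Gata1 0.045 (SE 0.22) and Epor 0.27 (SE 0.17). Centred on the otic epithelium list these 3 became -0.29, -0.27 and -0.049, as that list's own mean was 9.21 and 9.16 at E10.5 and 8.59 and 9.15 at E10.

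Both stage calls were lost in some fits that left out 1 array, while the differences kept their direction. Over the fits without 1 array Car2 ranged from -1.20 to -1.12 in wild type. Hemgn ranged from 2.82 to 3.71 in labelled-null vesicles. The Car2 fall in wild type gave an adjusted p of 0.104 without wild-type E10 replicate 1, 0.375 and 0.337 without each wild-type E10.5 array and 0.0889 without either labelled-null E10.5 array. The Hemgn rise in labelled-null vesicles gave 0.182 and 0.183 without each labelled-null E10.5 array and 0.0843 without either wild-type E10.5 array. Without both E10 replicate 1 arrays, which leaves 1 E10 array per genotype, the members' median was 1.63 in labelled-null and 0.70 in wild-type vesicles. Over the alternative fits the count called over all sets ranged from 0 to 314 in labelled null and from 0 to 1674 in wild type. The stage contrasts share no array with each other but use 1 estimate of spread.

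**Figure D3:**
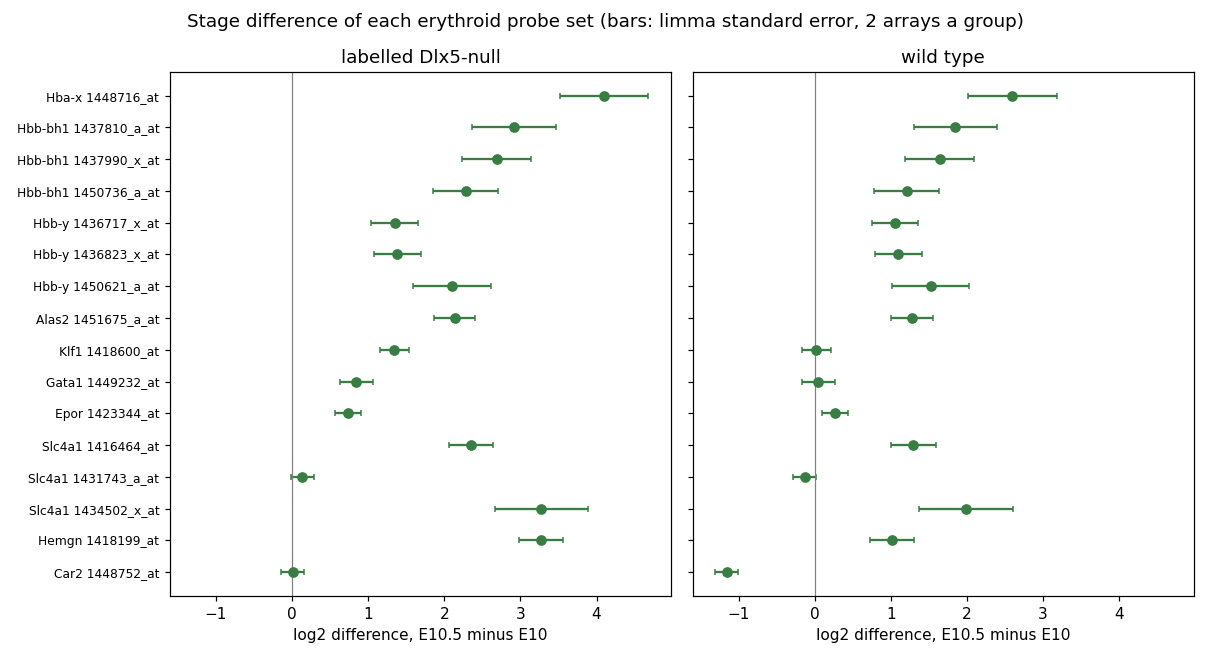
Log2 difference of each erythroid probe set, E10.5 minus E10, in labelled Dlx5-null vesicles on the left and in wild-type vesicles on the right, with limma standard errors as bars and 2 arrays in each group. Hba-x has the largest difference in both panels (4.10 and 2.60), Klf1 and Gata1 lie near 0 in wild type (0.02 and 0.045), and Car2 lies at 0.005 in labelled-null vesicles and at -1.16 in wild type.

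At E10 the 2 arrays of each group lay apart in many of these sets. Replicate 2 was higher than replicate 1 in 13 of 16 sets in labelled-null vesicles at E10 and in 13 of 16 in wild type at E10, with medians of 0.76 and 0.80 where all sets gave -0.04 in each. Other lists had such a gap too: the mean of the 11 otic epithelium genes was higher in replicate 2 by 0.43 in labelled-null and 0.55 in wild-type vesicles at E10, and that of the 14 periotic mesenchyme genes by 0.32 and 0.36, beside 0.58 and 0.52 for the mean of the 10 erythroid genes. At E10.5 the medians of the erythroid sets were -0.01 in labelled-null and 0.03 in wild-type vesicles. The widest gap at E10 was that of Hba-x in labelled-null vesicles, at 1.49, and that of Slc4a1 1434502_x_at in wild-type vesicles, at 1.94.

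The gap was seen in every globin set of the members. At E10 these 7 sets differed between replicates by 0.68 to 1.49 in labelled-null vesicles and by 0.79 to 1.69 in wild-type vesicles. The mean of the 3 other globin genes differed by -0.06 in labelled-null and by 0.063 in wild-type vesicles, but these genes moved in opposite directions. From replicate 1 to 2 Hba-a2 went from 7.92 to 8.67 in labelled-null and from 7.65 to 8.67 in wild-type vesicles. Hba-a1 went from 4.97 to 4.48 and from 4.96 to 4.57, and Hbb-b2 from 4.99 to 4.55 and from 4.76 to 4.32. Alas2 and Hemgn differed by 0.87 and 0.89 in labelled-null vesicles and by -0.09 and 0.07 in wild type. Klf1, Gata1 and Epor gave -0.40, -0.04 and -0.01 in labelled-null vesicles and 0.06, -0.48 and -0.30 in wild type, so none of the 3 shared the gap. The arrays with the lower values in the members' globin sets at E10 are the 2 with the narrower value range and the low Xist described above. The part of these features in the globin gap was not tested. The Y-linked Eif2s3y also varied. In replicates 1 and 2 at E10 it read 6.50 and 6.17 in labelled-null and 7.04 and 3.96 in wild-type vesicles. At E10.5 it read 4.82 and 5.04 in labelled-null and 3.21 and 3.45 in wild-type vesicles. With its level as a covariate the members' median at E10.5 was 1.33 with 0 of 16 called.

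**Figure D4:**
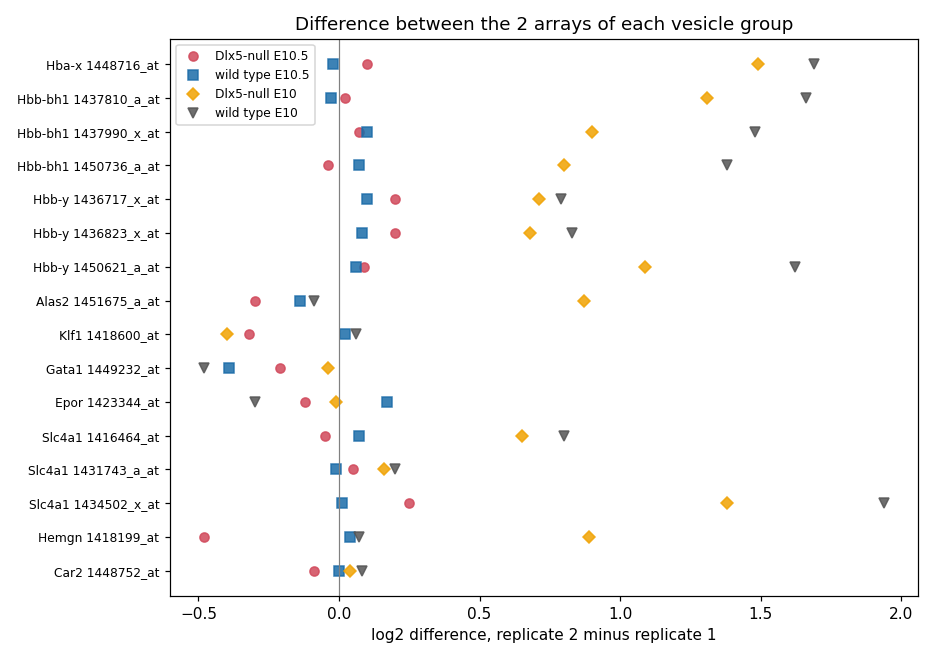
Difference between the 2 arrays of each vesicle group for every erythroid probe set, replicate 2 minus replicate 1 on the log2 scale, with 1 symbol per group. At E10.5 most points lie near 0, whereas at E10 the globin sets and 2 Slc4a1 sets lie between 0.65 and 1.94 in both genotypes and Car2 lies near 0 in all groups.

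Other genes of the red cell programme were examined as 5 lists beside the members, of which 49 of 63 genes were measured, each by its brightest probe set. At E10.5, 34 of 49 were higher in labelled-null vesicles, against 52.3% of all sets, with a median difference of 0.16. Without overlap 25 of the 49 were higher, against 21.3% of all sets, and 6 were lower, against 19.5%. By limma 0 of the 49 were called, against 0.00222% of all sets. At an unadjusted p under 0.05 were 6 higher, against 0.764% of all sets, and 1 lower, against 1.77%. The brightest sets of the 10 members gave a median of 0.92 in the same contrast.

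Of the red cell membrane and skeleton genes, 12 of 14 were higher, against 52.3% of all sets, with a median of 0.30. Without overlap 11 were higher, against 21.3% of all sets, and 0 were lower, against 19.5%. Kel, a blood group endopeptidase gene, had 6.62 and 5.95 in labelled-null vesicles against 5.09 and 5.06 in wild type, a difference of 1.21 (SE 0.27, limma adjusted p = 0.852). Rhd, a Rhesus blood group gene, had 7.19 and 7.14 against 6.39 and 6.50 in wild type (0.72), and Icam4, a red cell adhesion gene, 6.17 and 6.14 against 5.55 and 5.56 in wild type (0.60). In both genes the labelled-null values lay above the wild-type ones by more than the gap between replicates.

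Among erythroid transcription factor genes 8 of 12 were higher, with a median of 0.10. Without overlap 4 were higher and 3 lower, near the 21.3% and 19.5% of all sets. Gfi1b, a repressor needed in red cells and megakaryocytes, had 7.76 and 7.26 in labelled-null vesicles against 6.50 and 6.31 in wild type, a difference of 1.11 (SE 0.20, unadjusted p = 0.000545, limma adjusted p = 0.507). Tal1, a master factor of blood formation, had 6.05 and 5.80 against 5.15 and 5.45 in wild type (0.63). Gata2, a progenitor factor that also acts in the ear, was lower, at 8.02 and 7.83 against 8.53 and 8.42 in wild type (-0.55).

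Of 13 haem synthesis and iron uptake genes 7 were higher, with a median of 0.025. Without overlap 4 were higher and 2 lower, against 21.3% and 19.5% of all sets, and 0 had an unadjusted limma p under 0.05. Alad, the second enzyme of haem synthesis, differed by 0.55 and the mitochondrial iron carrier gene Slc25a37 by 0.46. Many of these genes act in all cells, and their levels differed. Over the 8 vesicle arrays the ferrochelatase gene Fech lay between 8.43 and 9.34, and Steap3 of the same list between 5.19 and 5.82. Of the 7 other red cell protein genes 5 were higher, each without overlap, against 21.3% of all sets. Their list had a median of 0.21, and Blvrb, a biliverdin reductase gene, differed by 0.63. Of the 10 other globin genes listed only 3 were measured, and of these 3 genes 2 were higher, with a median of 0.03. Hba-a2 read 7.77 and 6.79 in labelled-null vesicles against 8.19 and 8.03 in wild type (-0.83). In 2B1 cells, which are grown apart from blood, Hba-a2 read 6.23 to 7.17 and Hba-a1 5.77 to 6.17. Whether these sets report blood in the vesicles was not tested.

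By stage, 40 of these 49 red cell genes were higher at E10.5 in labelled-null vesicles, against 46.6% of all sets, with a median of 0.39. By limma 0 of the 49 were called there. At an unadjusted p under 0.05 were 17 higher, against 4.51% of all sets, and 2 lower, against 5.91%. In wild type 32 of 49 were higher, against 42.2% of all sets, with a median of 0.13, and limma called 2 higher, against 0.377% of all sets, and 1 lower, against 0.457%. Gata2 rose by 1.39 in wild type (limma adjusted p = 0.0281), as did Ldb1, a cofactor gene of GATA1 and TAL1 complexes, by 0.91 (limma adjusted p = 0.0435). Tfrc, the transferrin receptor gene used in iron uptake by dividing cells and erythroblasts, fell by 1.23 on the log2 scale in wild type (limma adjusted p = 0.0303).

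Markers of other cell types were read on the same arrays to show what moved beside the erythroid genes at E10.5. Of 15 macrophage and other white cell genes 7 were higher in labelled-null vesicles, with a median of -0.06, and the pan-leukocyte gene Ptprc was at 3.37 and 3.75 against 3.39 and 3.18 in wild type. Of 8 megakaryocyte and platelet genes 6 were higher, with a median of 0.15, and the platelet chemokine gene Pf4 had 8.37 and 8.59 against 7.49 and 7.79 in wild type (0.84, limma adjusted p = 0.999). Pf4 also rose between E10 and E10.5 in labelled-null vesicles, by 2.54 (limma adjusted p = 0.0261).

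Vessel and mesenchyme genes read mostly lower in labelled-null vesicles. Of 16 endothelial genes 4 were higher in labelled-null vesicles, with a median of -0.12. Without overlap 2 were higher, against 21.3% of all sets, and 7 lower, against 19.5%. Pecam1, a marker of vessel walls, had 6.53 and 6.48 against 6.93 and 6.62 in wild type. Of 14 periotic mesenchyme genes 3 were higher, with a median of -0.26. Without overlap 2 were higher and 6 lower, against 21.3% and 19.5% of all sets. The proteoglycan gene Lum had 7.94 and 7.33 against 8.76 and 8.75 in wild type (-1.12). Of 11 otic epithelium genes 4 were higher, with a median of -0.09. Without overlap 3 were higher and 4 lower, against 21.3% and 19.5% of all sets. The defining otoconial gene Oc90 was high at E10.5 in both genotypes, at 13.24 and 13.14 in labelled-null vesicles against 13.28 and 13.28 in wild type. The largest differences of that list were all lower in labelled-null vesicles, and none was called. The otic transcription factor gene Gata3 had 6.64 and 6.41 against 7.17 and 7.29 in wild type (-0.705, unadjusted p = 0.102). Pax8, another otic transcription factor gene, had 7.21 and 6.85 against 7.81 and 7.63 in wild type (-0.69, unadjusted p = 0.0115), and the epithelial cadherin gene Cdh1 had 7.93 and 7.66 against 8.36 and 8.35 in wild type (-0.56, unadjusted p = 0.00776), each with a limma adjusted p of 0.999. The part of blood, vessels or dissection in the erythroid difference was not tested.

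Expressed as a mean over the brightest sets of the 10 genes, the erythroid level was 10.05 and 9.96 in labelled-null vesicles at E10.5, against 9.0 and 8.99 in wild type, and at E10 7.74 and 8.32 against 7.86 and 8.38 in wild type. The endothelial list mean was 6.37 and 6.24 in labelled-null vesicles at E10.5, against 6.44 and 6.45 in wild type. The mesenchymal list mean was 6.60 and 6.44 against 6.81 and 6.68 in wild type. The erythroid mean was thus highest, and these list means lower than in wild type at E10.5, in the same 2 arrays. The lower endothelial and mesenchymal readings were not confined to E10.5. In labelled-null vesicles at E10, 13 of 16 endothelial genes were lower than in wild type, with a median of -0.17. Of the mesenchyme genes 10 of 14 were lower there, with a median of -0.24. By their brightest sets 6 of the 10 erythroid genes were higher there, with a median of 0.0575. Between E10 and E10.5 the endothelial and mesenchymal lists rose too. Of 16 endothelial genes 14 were higher at E10.5 in each genotype, with medians of 0.415 in labelled-null and 0.2775 in wild-type vesicles. Of 14 mesenchyme genes 13 and 12 were higher, with medians of 0.58 and 0.5375. Over all sets 46.6% and 42.2% were higher. The erythroid medians by brightest sets were 1.74 and 1.035.

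**Figure D5:**
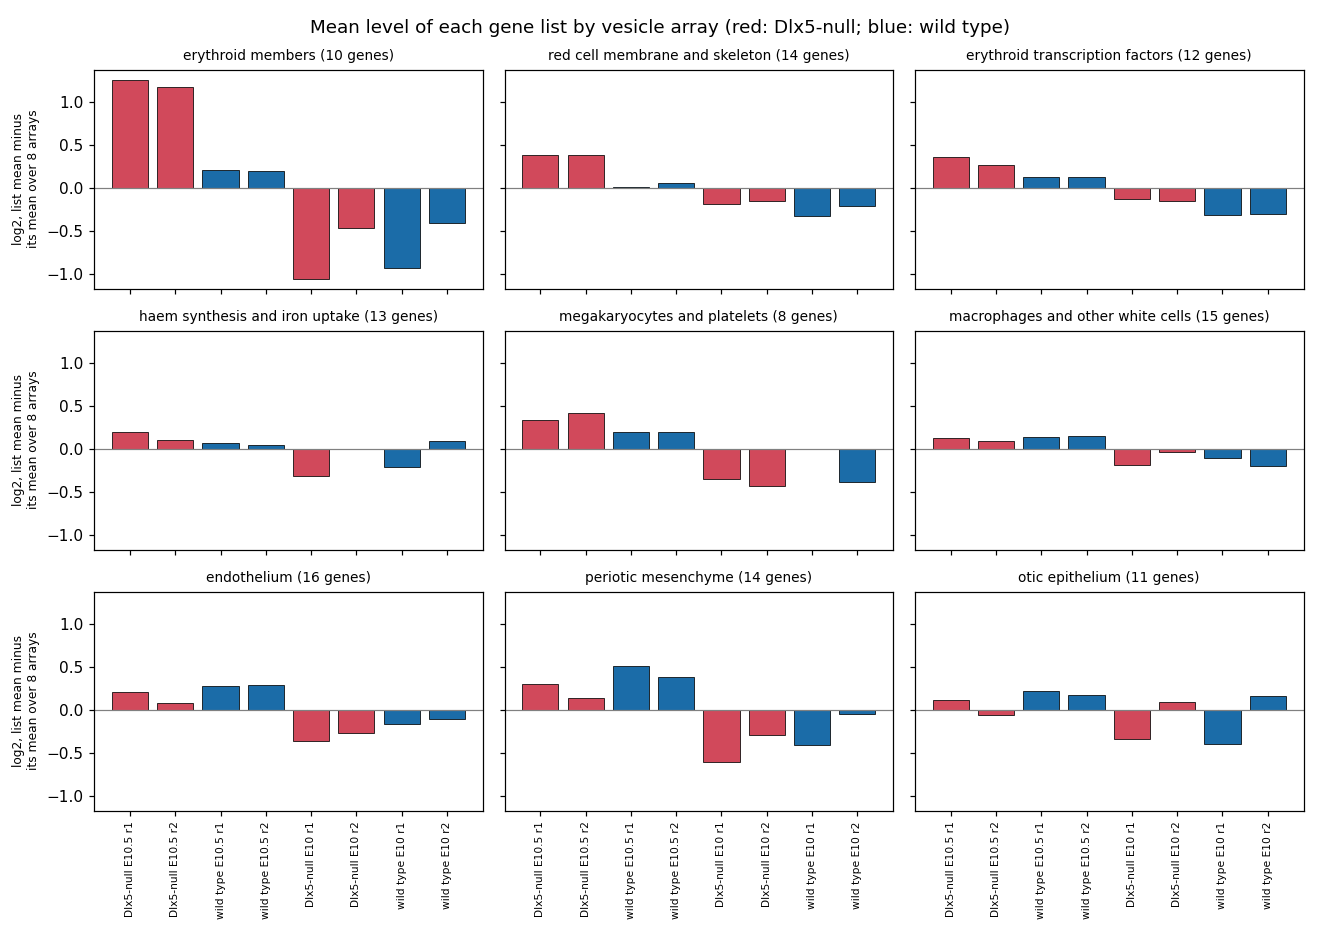
Mean log2 level of the genes of each list in each vesicle array, minus that list's mean over the 8 arrays, with labelled Dlx5-null arrays in red and wild-type arrays in blue. The erythroid members have the widest range of the 9 lists and are highest in the 2 labelled-null E10.5 arrays, while the endothelium, periotic mesenchyme and otic epithelium lists read lower there than in wild type at E10.5.

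Genes whose pattern over the 8 vesicle arrays was most like that mean were sought among 15720 genes, and the 12 with the highest Pearson correlation had r of 0.95 to 0.99, a description over 8 arrays that share 2 stages. The first was Fech, the last enzyme of haem synthesis (r = 0.99), followed by Ctse, the gene of the protease cathepsin E, at r = 0.99, then Gstm1, Kcnn4, Slc25a37, S100a16, S100a1, Ppp1r15a, Ssbp4, Gsg1l, Rarb and Blvrb. Of these, Fech, Slc25a37 and Blvrb belong to the red cell lists. Ctse had 10.02 and 9.96 in labelled-null vesicles at E10.5, against 8.58 and 8.41 in wild type, and Kcnn4, a calcium-activated potassium channel gene of red cells, 9.95 and 9.60 against 8.87 and 8.72 in wild type. Among the members the sets closest to the mean of the others were Slc4a1 1416464_at (r = 0.98) and Hba-x (r = 0.98), and Gata1 was the lowest among the transcription factors (r = 0.72).

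2B1 cells are grown in culture apart from blood, and the erythroid sets were read there as well. Hba-x had 4.91 and 4.97 after Dlx5 transfection, against 5.09 and 5.13 with the empty vector, and Hemgn 3.07 and 3.19 against 3.17 and 3.12. The 2 x sets of Hbb-y had 2.80 to 3.11 after Dlx5 transfection, against 2.80 to 3.30 with the empty vector. These values lay below the means of the cell line arrays.

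With Dlx5 transfection 3 of 16 sets were higher, against 49.1% of all sets, with a median difference of -0.14 against 0 over all sets, and 0 of 16 passed limma, against 0% of all sets. At an unadjusted p under 0.05 were 0 of 16, against 6.11% of all sets higher and 3.41% lower. The groups did not overlap in 1 set that was higher, Klf1, against 22.1% of all sets, and in 6 that were lower, against 20.6%. Hbb-bh1 by 1437810_a_at had 4.87 and 4.96 after Dlx5 transfection, against 6.67 and 5.08 with the empty vector. Its difference was -0.96 (SE 0.46, limma adjusted p = 0.533), and the groups overlapped by the other 2 Hbb-bh1 sets. Car2 had 5.02 and 5.17 after Dlx5 transfection, against 5.57 and 5.32 with the empty vector, and differed by -0.35 (SE 0.17, limma adjusted p = 0.533).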

How the data were processed

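The authors deposited 1 table of log2 expression values for 12 arrays. The submitters' processing notes name RMA and Affymetrix Expression Console, and their versions are not stated in the sources at hand. RMA's background step can shrink differences of dim sets, which was not tested here. Signal over background and scan batches were not analysed here.

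Groups and replicate numbers came from sample titles. The description field numbers all 4 E10.5 vesicle samples as replicate 1, against titles that give 1 and 2, so the replicate numbers at E10.5 rest on the titles alone. Probe sets were named from GEO's platform annotation (34958 with 1 gene, 932 with several, 9211 with none), and 34754 symbols were matched by gene identifier to RefSeq GRCm38.p6, which also supplied promoters and positions. After 64 control sets were left out, 45037 sets were tested singly and without a filter by lmFit and eBayes of limma 3.58.1 (R 4.3.3), with Benjamini-Hochberg adjustment over all sets and a threshold of 0.05. Vesicle contrasts used the means of the 4 groups (4 residual degrees of freedom), the average over stages took stage as a covariate (5), and 2B1 was fitted apart (2). The fit was tested on simulated data. At most 2.78% of values were equal between any pair of arrays, so no array was a copy of another. Equal values cannot show whether 2 arrays came from separate RNA, and each array was counted as its own sample by its title. Over all sets the median absolute gap between replicates was 0.17 in labelled-null and 0.11 in wild-type vesicles at E10.5. At E10 it was 0.29 and 0.32.

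All member sets were named, with up to 3 genes of each other list by size of difference in a contrast and the 12 genes most like the members' mean. Xist and Eif2s3y were named after their values were seen. The members and lists were chosen with earlier results of these data known. Alternatives covered 1 set per gene, a filter on the lowest 25%, a trended prior, centring on the median or on otic genes, a replicate block, Eif2s3y as a covariate and leaving out arrays.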

Additional observations from a re-analysis of the deposited data

Results flagged for a closer look

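Car2 was lower in labelled Dlx5-null than in wild-type vesicles at E10 and higher at E10.5, with no overlap between genotypes at either stage. The differences were 0.39 at E10.5 and -0.78 at E10, and the test of their difference gave 1.17 on the log2 scale (unadjusted p = 0.00048, limma adjusted p = 1).

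Klf1 showed the same turn of direction, with differences of 0.96 at E10.5 and -0.36 at E10. The test of the difference gave 1.32 (unadjusted p = 0.00126, limma adjusted p = 1).

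The dim Slc4a1 set 1431743_a_at was higher at E10.5 than at E10 in labelled-null vesicles (0.14) and lower in wild-type vesicles (-0.14), without overlap between stages in either. The test of the difference gave 0.27 (unadjusted p = 0.257, limma adjusted p = 1), and the set stayed within 0.30 over the 8 vesicle arrays.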

How the results depend on the processing

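Of 212 recomputed counts and medians of the members, 174 stayed close to the reported value and 38 moved. At E10.5 the labelled-null count called (0) was 2 with the replicate block and 4 without both E10 replicate 1 arrays, and the median (0.86) was 1.33 with Eif2s3y as a covariate. Leaving out 1 array gave medians of -0.43 to 0.53 for labelled null at E10 and 0.50 to 1.37 for the difference between stages. In wild type by stage the count called (1) ranged from 0 to 9 without 1 array and was 0 with the replicate block, with Eif2s3y or centred on otic genes, and 8 without both E10 replicate 1 arrays. The median (1.15) ranged from 0.70 to 1.48 without 1 array and was 0.48 with Eif2s3y and 0.70 without both E10 replicate 1 arrays. In labelled null by stage the count called (1) ranged from 0 to 7 without 1 array and was 0 with the replicate block, 5 with a trended prior and 10 without both E10 replicate 1 arrays. It was 4 with the E10.5 numbers crossed in the replicate block, chosen after seeing the data. The median (2.12) ranged from 1.63 to 2.61 without 1 array and was 1.48 with Eif2s3y and 1.63 without both E10 replicate 1 arrays. In 2B1 cells the median ranged from -0.26 to -0.058 without 1 array. Over all sets the count called ranged from 0 to 1674 in wild type by stage (376 reported), 0 to 314 in labelled null by stage (31) and 0 to 52 for labelled null at E10.5 (1).

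Some values near 0 changed sign. In wild type by stage Klf1 (0.02) ranged from -0.01 to 0.05 without 1 array and was -0.01 without both E10 replicate 1 arrays, -0.0065 with Eif2s3y and -0.29 centred on otic genes. Gata1 (0.045) ranged from -0.20 to 0.28 without 1 array and was -0.27 centred on otic genes, and Epor was -0.049 centred on otic genes. In labelled null by stage Car2 (0.005) ranged from -0.04 to 0.05 without 1 array and was -0.015 without both E10 replicate 1 arrays, -0.036 with Eif2s3y and -0.15 centred on otic genes. The causes were not tested.

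Replicate numbers are not known to pair samples. Deviations from the group means of arrays with the same number correlated at 0.66 between genotypes at E10, 0.02 at E10.5, -0.05 between stages in wild type, -0.37 between stages in labelled null and -0.10 in 2B1. The number of arrays, 2 a group, limits all of these counts.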
